A study of Drosophila melanogaster with 3 samples.

Results

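A divergent promoter is a stretch of DNA from which a pair of neighbouring genes is transcribed in opposite directions, 1 on each strand. Of the 3644 reproducible croc-eGFP binding peaks on the 6 chromosome arms of Drosophila melanogaster, 579 lay at such promoters, which is 15.9% of the peaks (95% exact binomial interval 14.7 to 17.1%). A peak was counted when its summit, the position of highest enrichment, was within 500 bp of the transcription start site (TSS) of a protein-coding gene on the plus strand and also within 500 bp of a TSS of another protein-coding gene on the minus strand. Position alone chose these peaks. For comparison, 899 peaks had a TSS within 500 bp without meeting that rule and are called one-directional, and 2166 peaks had no protein-coding TSS within 500 bp and are called outside promoters. Binding was mapped by ChIP-seq, in which fragments bound by a protein are pulled down and sequenced. The flies, of the strain croc-GFP, were transgenic for a croc-eGFP fusion, whole embryos were collected at 0 to 18 h, their chromatin was broken into pieces of 200 to 800 bp by sonication, and the tag was pulled down with anti-GFP. All 3 libraries are biological replicates of this 1 group, so there is no treated group, and control libraries were not analysed here. The source label describes the strain as an insertion that targets croc, and the labels do not say more on what drives the fusion or on the state of the flies' own croc gene. Embryos of a wide range of stages were collected whole, so a peak does not tell in which cells or at which stage it formed.

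The crocodile gene (croc) encodes a transcription factor with a forkhead domain, a DNA-binding fold whose members recognise short AT-rich words such as TGTTTAC, and it is known for its part in patterning the head of the embryo. Divergent gene pairs are common in the compact fly genome, and many of their genes serve every cell, in translation, mitochondria, chromatin and transcription. Such promoters often hold the DRE word TATCGATA, bound by DREF, or the word GGTCACAC, bound by M1BP, and the sequence between the start sites tends to be free of nucleosomes in active genes.

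The DNA between the start sites is shown for 3 of the 5 strongest divergent promoter peaks, because these short intervals hold the summit near their middle and 1 of them has no forkhead word at all. All are read 5′ to 3′ on the plus strand from the RefSeq Release 6 sequence, so that the minus-strand gene starts at the left end and the plus-strand gene at the right end. Capitals mark forkhead words (TATTTAC or TATTTAT or TGTTTAC or TGTTTAT, on either strand). The interval of Art3, an arginine methyltransferase gene, and mRpS10, a mitochondrial ribosomal protein gene, is chr3R:15229409-15229664 with the summit at base 133. That of CG7601 and CIA30, an assembly factor of respiratory complex I, is chr3R:29736746-29736964 with the summit at base 99. That of Tcs5, which acts in tRNA modification, and CHMP2B, a subunit of the ESCRT-III membrane-remodelling complex, is chr3L:5139396-5139618 with the summit at base 106.
Art3/mRpS10: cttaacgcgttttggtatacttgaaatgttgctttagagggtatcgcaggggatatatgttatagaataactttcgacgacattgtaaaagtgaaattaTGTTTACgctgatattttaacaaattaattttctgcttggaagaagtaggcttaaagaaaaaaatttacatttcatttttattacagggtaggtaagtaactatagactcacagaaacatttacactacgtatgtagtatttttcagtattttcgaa
CG7601/CIA30: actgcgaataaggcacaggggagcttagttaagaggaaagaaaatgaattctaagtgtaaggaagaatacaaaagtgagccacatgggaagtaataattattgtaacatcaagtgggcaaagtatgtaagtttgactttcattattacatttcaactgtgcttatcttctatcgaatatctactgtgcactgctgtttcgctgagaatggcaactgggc
Tcs5/CHMP2B: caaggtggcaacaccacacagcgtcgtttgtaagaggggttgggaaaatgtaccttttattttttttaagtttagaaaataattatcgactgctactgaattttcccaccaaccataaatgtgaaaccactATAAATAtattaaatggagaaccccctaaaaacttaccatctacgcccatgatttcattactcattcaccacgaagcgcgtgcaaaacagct

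The intervals are 256, 219 and 223 bases long, and AT pairs make up 69.9% of that of Art3/mRpS10, 62.1% of that of CG7601/CIA30 and 61.9% of that of Tcs5/CHMP2B. Other members are shown as windows of 101 bases with the summit at base 51, chosen from the strongest members whose windows lie outside all annotated transcripts and hold the word in question. The first pair of windows holds the strict forkhead word TGTTTAC, or GTAAACA when read from the other strand. They are at CG5611 and Mtl (chr3R:27636138-27636238), and at TH1, a subunit of the elongation factor NELF, and mei-41, the fly ATR kinase (chrX:16391500-16391600). The CG5611/Mtl window also has a second forkhead word in capitals.
CG5611/Mtl: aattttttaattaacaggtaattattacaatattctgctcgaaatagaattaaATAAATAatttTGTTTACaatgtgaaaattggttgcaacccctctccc
TH1/mei-41: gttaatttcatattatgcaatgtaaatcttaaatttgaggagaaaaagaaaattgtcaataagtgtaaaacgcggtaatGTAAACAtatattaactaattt

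Windows with the DRE word came from weaker peaks. They are at RpS25, a ribosomal protein gene, and CG4820 (chr3R:11216305-11216405) and at bmm, the brummer lipase gene, and Tdrd3, a Tudor domain gene (chr3L:14786531-14786631). Capitals mark the DRE word.
RpS25/CG4820: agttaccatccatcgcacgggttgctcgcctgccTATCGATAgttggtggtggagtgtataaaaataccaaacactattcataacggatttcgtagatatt
bmm/Tdrd3: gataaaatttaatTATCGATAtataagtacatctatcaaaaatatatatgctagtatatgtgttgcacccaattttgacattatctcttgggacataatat

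Per base, divergent promoters held the most summits. They cover 1674757 bp, or 1.25% of the arms, and carried 346 summits per Mb in the conservative list, the authors' list of peaks that repeat between replicates by the irreproducible discovery rate (IDR). One-directional promoter sequence carried 65.8 per Mb and the sequence outside promoters 18.3 per Mb. Divergent positions are 10.9% of all positions within 500 bp of a protein-coding TSS, but 39.2% of the 1478 promoter summits (36.7 to 41.7%) lay there. The density at divergent promoters was thus 5.25 times that at one-directional ones (2-sided exact binomial test over peaks, p = 1.61e-174). Peaks are not independent samples, so this p describes the lists and not the spread between embryos.

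The same order was seen in each replicate's own thresholded list. Replicate 1 had 464 divergent promoter peaks of 3195, replicate 2 had 403 of 2408 and replicate 3 had 346 of 1815. That is 404 ± 59.0 peaks and 16.8 ± 2.27% of a list (SD, n = 3). Densities at divergent promoters were 277, 241 and 207 per Mb in replicates 1, 2 and 3, against 55.9, 48.1 and 36.2 per Mb at one-directional promoters and 16.6, 11.4 and 8.22 per Mb outside promoters. No replicate's divergent density overlapped the one-directional densities. The ratio of divergent to one-directional density was 4.95, 5.0 and 5.71 in replicates 1, 2 and 3 (5.22 ± 0.425, SD, n = 3). Among the 13325 peaks of the ranked list of the series that missed the threshold, the ratio was lower, at 2.23.

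**Figure D1:**
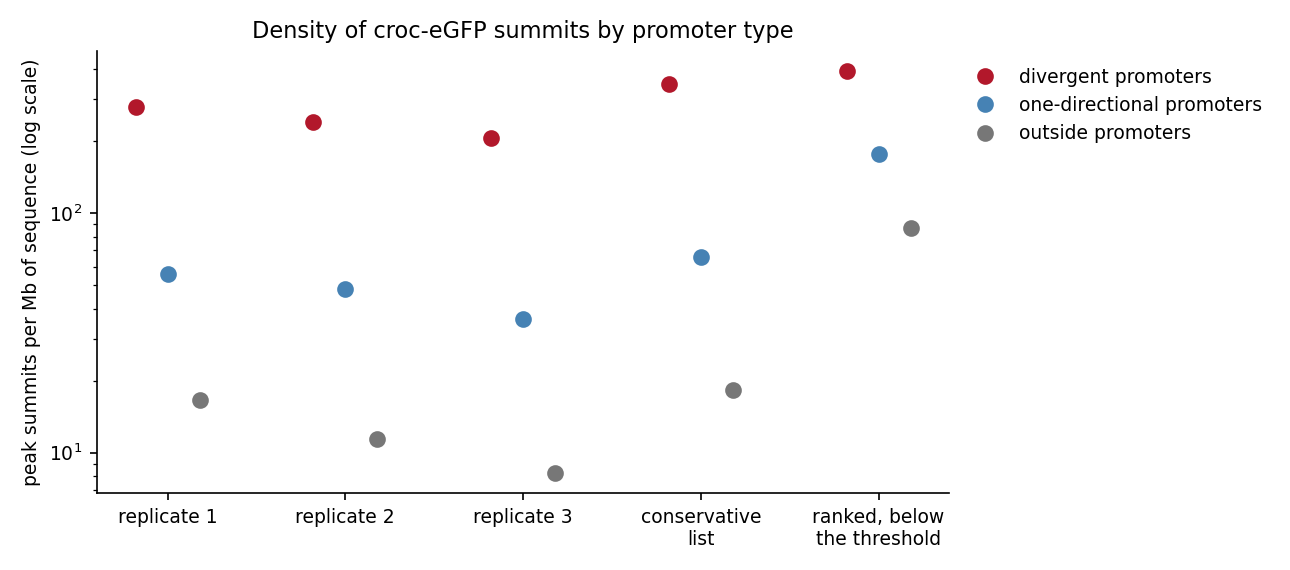
Peak summits per Mb of sequence (log scale) at divergent promoters, at one-directional promoters and outside promoters, for the 3 replicate lists, the conservative list and the ranked peaks below the threshold. Divergent promoters are highest in each list, at 207 to 277 per Mb in the replicates, and the gap to one-directional promoters is smallest below the threshold.

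A sequence within reach of start sites on both strands holds more intergenic DNA than one with a start on a single strand, so the comparison was repeated outside transcripts, a restriction added after seeing the data. Of the divergent promoter summits 64.8% lay outside every annotated transcript, against 46.5% of the one-directional ones and 30.7% of those outside promoters. Counting only summits and sequence outside transcripts, the densities were 688 per Mb at divergent and 136 per Mb at one-directional promoters, a ratio of 5.04 (2-sided exact binomial test, p = 1.66e-101).

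Seen from the genes, 5141 of the 13945 protein-coding genes had a partner on the other strand with a TSS at most 1000 bp away. A peak within 500 bp was found at 1179 of these paired genes, or 22.9% (21.8 to 24.1%), and at 616 of the 8804 unpaired genes, or 7.0% (6.47 to 7.55%). Over all protein-coding genes the share was 12.9%. A summit can count for both genes of a pair, so paired genes are not independent units, although their interval treats them so. A peak at a divergent promoter as defined here was found for 1037 paired genes, 20.2%. Of 2720 annotated pairs, 550 had at least 1 such peak (20.2%), among them 527 of 2615 head-to-head pairs, whose minus-strand start lies to the left of the plus-strand start (20.2%), and 23 of 105 pairs with overlapping starts (21.9%, 14.4 to 31.0%). About 1 in 5 pairs in either arrangement was therefore marked. The arrangement and distance of an annotated pair are those of its closest starts.

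The distance between the start sites went with the share of pairs that had a peak. The share was 16.2% of 419 pairs at 1 to 100 bp and 16.4% of 354 at 101 to 200 bp. It was 35.5% (31.5 to 39.8%) of 529 pairs at 201 to 300 bp and 31.5% (26.9 to 36.3%) of 394 at 301 to 400 bp. Farther apart it was 17.5% of 257 pairs at 401 to 500 bp, 15.2% of 204 at 501 to 600 bp, 4.87% of 267 at 601 to 800 bp and 0 of 191 at 801 to 1000 bp (exact interval up to 1.91%). Both shares between 201 and 400 bp thus lay above those at shorter and at longer distances, with intervals that did not overlap them. The rule itself lowers the share of wide pairs, because the sequence within 500 bp of both starts shrinks with their distance, from a mean of 945 bp in the closest class to 106 bp in the widest. It does not lower the share of the closest pairs, which offered the most sequence. Many copies of the histone genes on 2L, such as His2B and His2A pairs 129 bp apart, are among the pairs up to 200 bp and had no peak. They also count in the pairs on 2L and in those without a peak below, and mappability there was not analysed.

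**Figure D2:**
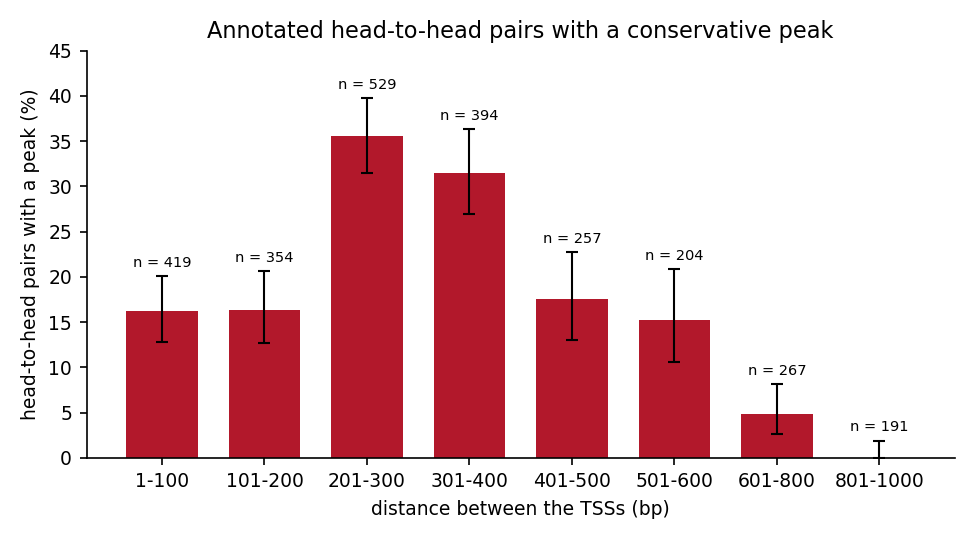
Share of annotated head-to-head gene pairs with a conservative peak within 500 bp of both starts (%), by the distance between the closest TSSs of the pair in bp. Bars are shares, lines are 95% exact binomial intervals and n is the number of pairs. The classes 201 to 300 bp and 301 to 400 bp stand highest, at 35.5% and 31.5%.

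Among the 5 large chromosome arms, the share of marked pairs was highest on 3R and lowest on the X. It was 25.1% of 674 head-to-head pairs on 3R (21.8 to 28.5%), 21.8% of 509 on 3L, 20.2% of 499 on 2L and 17.2% of 530 on 2R. On the X it was 14.0% of 392 pairs (10.7 to 17.9%), and on the small arm 4 it was 0 of 11 (exact interval up to 28.5%). The intervals of 3R and X did not overlap, and the difference was not tested.

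Most summits lay between the start sites. This held for 461 of the 579 peaks (79.6%), with start sites a median of 302 bp apart. Another 105 (18.1%) were at head-to-head pairs but to the side of both starts, inside 1 of the genes, and 13 (2.25%) were at pairs whose starts overlap. For each peak, the arrangement and distance are those of the starts nearest the summit. The counts of annotated pairs used the closest starts of a pair, so the 23 marked overlapping pairs are a different count. At Pdrg1/Pal1 the closest starts overlap, while those nearest the summit are head to head, 346 bp apart. Signals under 50 were found at 36 of the 105 peaks to the side and at 31 of the 461 between the starts. Between the starts, the nearer TSS was a median of 108 bp from the summit (quartiles 76 and 137 bp) and the farther one 200 bp (152 and 281 bp). The summit was within 50 bp of the midpoint in 257 of the 461 (55.7%). At one-directional promoters, 85.3% of the 899 summits were upstream of the nearest TSS, at a median of 176 bp.

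Of the summits that lay between the starts, most were near the midpoint where the starts were up to 400 bp apart. Among summits between starts up to 200 bp apart, 78.9% were within 50 bp of the midpoint. The share was 73.1% at 201 to 300 bp, 50.8% at 301 to 400 bp and 26.5% at 401 bp or more. A window of fixed length covers less of a wider interval, so these shares fall with distance by geometry alone. The positions within 50 bp of the midpoint made up a mean of 70.1%, 40.1%, 29.4% and 20.2% of the interval in the same order of classes. The share of summits there was above the share of the interval in each class, with the widest margin at 201 to 300 bp, and this was not tested. Where the starts were at most 100 bp apart, 36 of 41 summits were outside the interval, a median of 82 bp into a gene, 14 in the plus-strand gene and 22 in the minus-strand gene. These were not weak peaks, since 35 of the 36 had a signal of 50 or more and their median signal was 291. At 101 to 200 bp, 26 of 59 summits were outside the interval.

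**Figure D3:**
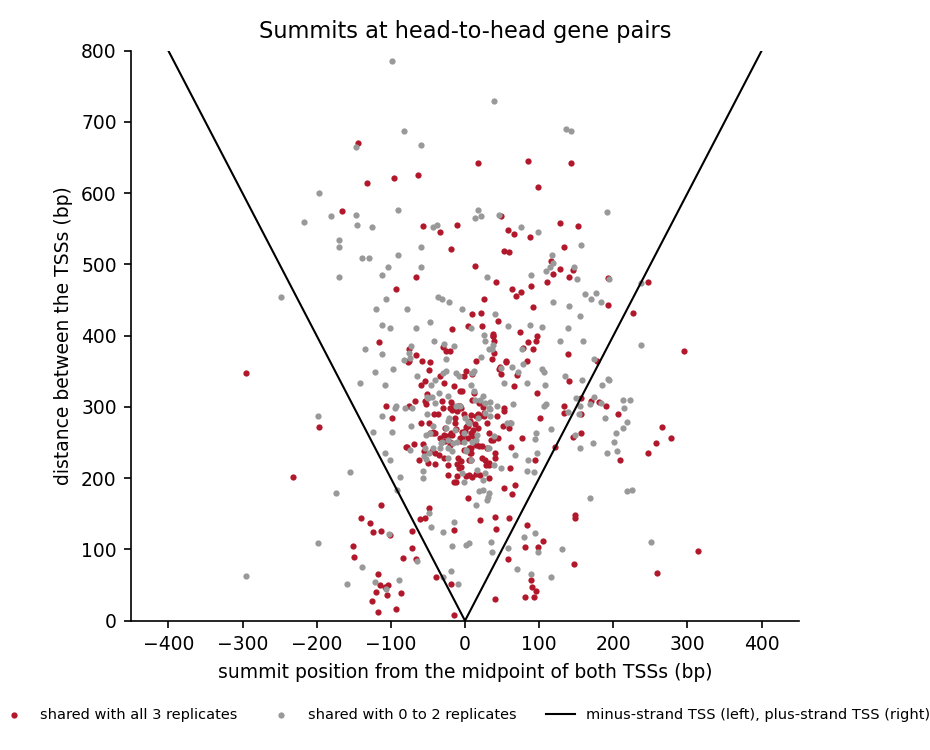
Summit position in bp from the midpoint of both TSSs (horizontal) and the distance between the TSSs in bp (vertical) for divergent promoter peaks at head-to-head pairs. The TSSs are those nearest the summit. Black lines mark the TSSs, red points are peaks shared with all 3 replicates and grey points are shared with fewer. Points gather near the midpoint for starts 201 to 300 bp apart and mostly fall outside the lines for starts at most 100 bp apart.

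Summits between the starts were split nearly evenly between both genes. Of the 460 summits nearer to 1 start than to the other, 245 were nearer the plus-strand start and 215 nearer the minus-strand start, which is 53.3% (48.6 to 57.9%, 2-sided exact binomial test against 50%, p = 0.176). Without peaks that have a stronger summit within 1 peak width, 384 bp, 498 of the 579 peaks were left and the share was 49.8% (exact test, p = 0.961). The removed peaks were not spread evenly. Of the 579 peaks, 69 had a signal under 50, and each of these 69 lay to the right of a stronger summit, at a median distance of 205 bp (199 to 240 bp). In the whole list 372 of 376 such weak neighbours were to the right. Left and right are those of the chromosome arm and are not tied to the strand of a gene, and the cause of this side was not tested. The density ratio without peaks that have a stronger summit within 384 bp was 5.14. Among peaks found in the lists of both other replicates, the share nearer the plus-strand start was 56.9% without replicate 1 (p = 0.0352), 57.8% without replicate 2 (p = 0.0150) and 55.5% without replicate 3 (p = 0.0640, each a 2-sided exact binomial test), so leaving out replicate 1 or 2 took it past the threshold.

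In signal and in sharing between replicates, divergent promoter peaks were close to one-directional ones. The signal is the authors' own value per peak, with no stated scale, and it ranks peaks within a list only. Its median was 204 at divergent promoters (quartiles 134 and 335, range 2.04 to 2330.3), 198 at one-directional promoters and 174 outside promoters. In the strongest 20% of the list were 23.3% of divergent, 26.1% of one-directional and 16.6% of outside peaks (20% of all peaks). The odds ratio of divergent to one-directional was 0.859 (0.674 to 1.10, 2-sided Fisher's exact test, adjusted p = 0.350 over 10 tests by Benjamini-Hochberg). A summit within 250 bp in all 3 replicate lists was found for 52.3% of divergent, 50.2% of one-directional and 38.6% of outside peaks (43.6% of all peaks). Here the odds ratio of divergent to one-directional was 1.09 (0.885 to 1.34, Fisher's exact test, adjusted p = 0.472). Neither difference passed the test, which does not show that the classes are alike. With start sites within 250 bp in place of 500 bp, sharing was more frequent at divergent promoters (odds ratio 1.57, Fisher's exact test, adjusted p = 0.00480). The conservative list was built from the same libraries, so this sharing is not independent evidence for a peak.

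Nearly all of these peaks were present in each replicate's ranked list, and fewer passed its threshold. Of the 579 peaks, the thresholded lists of replicates 1, 2 and 3 held 478, 417 and 353, or 82.6%, 72.0% and 61.0%. For one-directional peaks these shares were 85.2%, 73.2% and 56.8%, and for peaks outside promoters 82.8%, 63.9% and 44.4%. The longer ranked lists held 575, 573 and 560 of the 579. In these ranked lists of 24819, 17443 and 22972 peaks the median rank of the members was 1644, 1467 and 1281. The 303 peaks shared with all 3 replicates had a median signal of 323, and the 51 found in no replicate's thresholded list had 115. Replicate 3, whose thresholded list was the shortest, missed the most in each class of peaks. Among the 579, 77 were held by both replicates 1 and 2 but not by 3.

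The 12 strongest peaks shared with all 3 replicates had signals of 1319 to 2330.3. At Art3/mRpS10, whose sequence is given above, the conservative signal was 2330.3, and the ranked lists of replicates 1, 2 and 3 gave 968, 857 and 504. Its summit was 133 bp from the Art3 start and 124 bp from the mRpS10 start. The peak at Chro, the gene of Chromator, a chromodomain protein, and Ssl1, a subunit of the transcription factor TFIIH, had a signal of 2044 and 883, 657 and 514 in the replicates. Its starts are 105 bp apart and the summit was 98 bp inside Chro, which makes it the strongest peak with its summit to the side of both starts.

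The next pairs among the 12 had signals of 1511 to 1983. CG7601/CIA30 had a signal of 1983, with 836, 685 and 470 in replicates 1, 2 and 3, and CG5611/Mtl had 1942, with 793, 741 and 358. Tcs5/CHMP2B had 1916, with 767, 726 and 440. mRpS23/CenG1A, a mitochondrial ribosomal protein gene beside a GTPase regulator, had 1740.5, with 708, 614 and 409. In 10 of the 12 pairs the summit lay between the starts. The exceptions were Chro/Ssl1 and mRpL23/CG9004 (signal 1511), another mitochondrial ribosomal protein gene, whose starts are 50 bp apart.

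The last 5 of the 12 had signals of 1319 to 1447. Atat, a tubulin acetyltransferase gene, and Shc, a signalling adaptor gene, shared a peak of 1447 in the conservative list. The peak between brm, the ATPase of the SWI/SNF chromatin remodeller, and Arl1, a Golgi GTPase gene, had 1398, and its summit was 133 bp from either start. CG13390/CG17294 had 1373, Pdrg1/Pal1 had 1354, and eIF4EHP, a cap-binding repressor of translation, with CG18428 had 1319. Replicate 3 gave the lowest signal in each of the 12, and since each list has its own scale this does not compare binding between replicates. Forkhead words were within 50 bp of 5 of the 12 summits, and the strict word within 50 bp of those of Art3/mRpS10 and CG5611/Mtl.

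**Figure D4:**
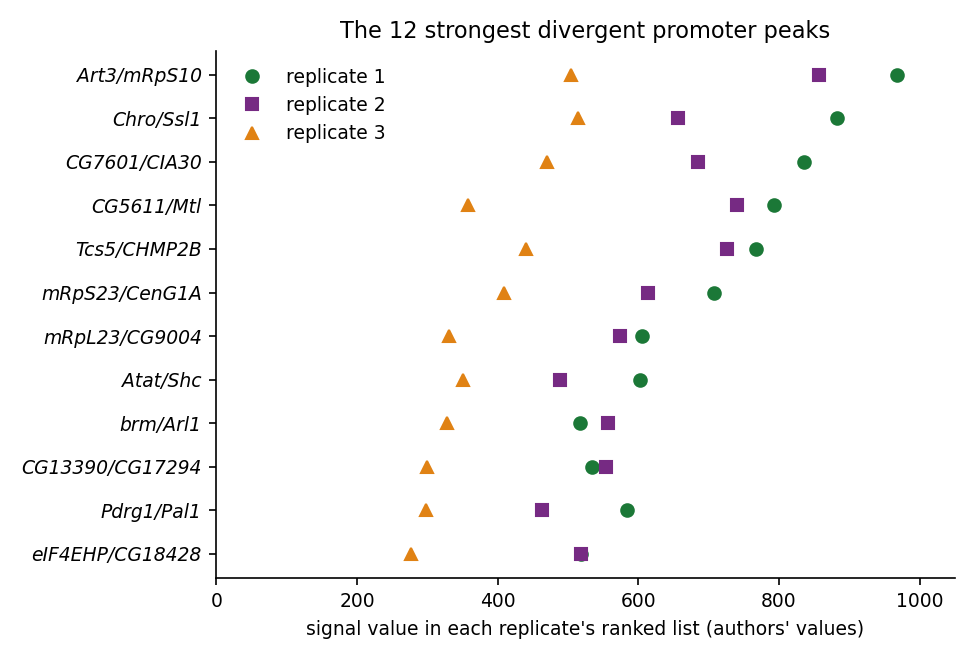
Signal of the 12 strongest divergent promoter peaks in the ranked list of each replicate (authors' values, each list on its own scale), ordered by the signal in the conservative list. Replicate 3 lies lowest in each pair, from 277 at eIF4EHP/CG18428 to 514 at Chro/Ssl1.

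The strongest members of other kinds had lower signals. The strongest of the 13 peaks at overlapping starts was at CG31808 and Cyt-c-d, a cytochrome c gene, with a signal of 884 and 343, 384 and 142 in replicates 1, 2 and 3. The median signal of the 13 was 234, against 205 for peaks between the starts and 160 for those to the side. The strongest peaks in no replicate's thresholded list were those of Jupiter, a microtubule-associated protein gene, with CG14710 (163), of Usp5, a deubiquitinase gene, with BtbVII (157), and of CG1677/CG2059 (153). Each of these 3 was present in the ranked lists of all replicates. At Jupiter/CG14710 the replicate signals were 63.2, 52.4 and 36.6. At the edge of the rule, the summits of CCT3/CG10324 and crp/pkaap were 497 bp from the farther start and were kept, with signals of 186 and 132. The summits nearest outside it were 505 bp (RpL10Ab and its neighbours, signal 24.1) and 506 bp (Nup58/Vha13, 102) away.

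Base composition differed between the classes most visibly in the flanks. Within 50 bp of the summit the mean AT content was 69.2% at divergent, 67.1% at one-directional and 67.4% at outside peaks. In windows of the same length centred 500 bp to either side it was 50.1%, 57.0% and 57.7% in the same order. Each divergent summit thus tended to sit in an AT-rich stretch flanked by the more GC-rich beginnings of genes. The rule asks for a start on each strand near the summit, so flanks within genes on both sides are largely set by it. The flanks of divergent promoters without a peak were not measured. The summit's place in the interval between the starts and this profile describe the same sequence and are not separate findings.

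**Figure D5:**
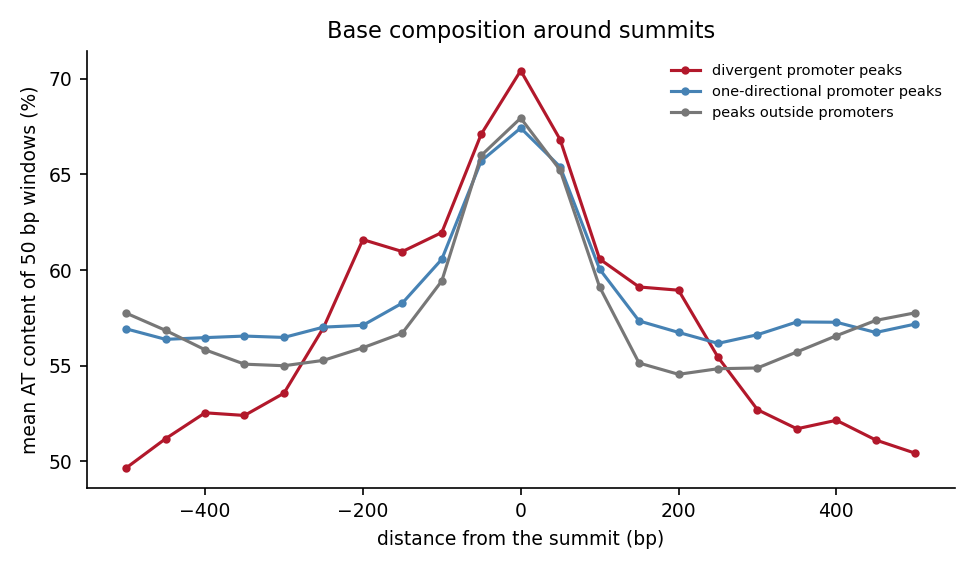
Mean AT content of 50 bp windows (%) by distance from the summit in bp, for divergent promoter peaks (red), one-directional promoter peaks (blue) and peaks outside promoters (grey). All rise at the summit, to 70.4% at divergent promoters, and divergent promoters have the lowest flanks.

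Of 8 words searched on both strands within 50 bp of the summit, 1 differed between divergent and one-directional peaks after adjustment over the 10 tests. The word TATAAA, as in the TATA box, was present at 30.4% of divergent, 23.1% of one-directional and 24.9% of outside peaks (25.3% of all peaks). Its odds ratio of divergent to one-directional was 1.45 (1.15 to 1.84, 2-sided Fisher's exact test, adjusted p = 0.0236). This call was lost in 9 of 14 alternatives, among them leaving out any 1 replicate (odds ratio 1.26 to 1.38, exact test, adjusted p 0.132 to 0.566). The divergent windows are also richer in AT, as given above, and the part of this in the difference was not tested. The search was around the summit and not at a set distance from a start, so TATAAA here does not mark a TATA box in use. Forkhead words were at 27.8%, 24.1% and 22.3% in the same order (23.6% of all peaks), an odds ratio of 1.21 (0.955 to 1.53, exact test, adjusted p = 0.254). The strict word TGTTTAC, which is 1 of the forkhead words, was at 3.28%, 2.22% and 2.31% (2.44% of all peaks, exact test, adjusted p = 0.350). In flanks 500 bp to the left and right of divergent summits, forkhead words were at 8.81% and 9.50% and TATAAA at 4.49% and 5.70%.

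Words of promoter-binding proteins were rare at the summit. The DRE word TATCGATA was at 3.11% of divergent, 1.67% of one-directional and 0.0462% of outside peaks (0.933% of all peaks, Fisher's exact test of divergent against one-directional, adjusted p = 0.237). The M1BP word GGTCACAC was at 1.55%, 0.556% and 0.231% (0.521% of all peaks, exact test, adjusted p = 0.237). E-boxes (CAGCTG) were at 5.18%, 2.67% and 2.26% (2.83% of all peaks, odds ratio 1.99, exact test, adjusted p = 0.0762). In flanks 500 bp to either side of divergent summits the E-box was at 6.91%, above its share at the summit. At the midpoint of head-to-head pairs it was in 4.55% with a peak and 7.33% without. In their whole intervals it was in 19.4% and 16.9%, and these shares were not tested. With a replicate left out, the odds ratio of the E-box was 3.50 without replicate 1 (adjusted p = 0.0429), 3.07 without replicate 2 (adjusted p = 0.0914) and 3.36 without replicate 3 (adjusted p = 0.0162, exact tests), so it passed the threshold without replicate 1 or 3. GAGA words (GAGAGAG) were at 0.518%, 1.00% and 1.20% (1.04% of all peaks, exact test, adjusted p = 0.472). The Zelda word CAGGTAG was at 0 of 579 divergent peaks (exact interval up to 0.635%), 0.222% of one-directional and 0.462% of outside peaks (0.329% of all peaks, adjusted p = 0.523). With a window of 100 bp to either side, by the same exact test, the DRE word (odds ratio 2.92, adjusted p = 9.22e-05), the E-box (1.90, adjusted p = 0.000638) and TATAAA (1.5, adjusted p = 0.000597) were more frequent at divergent peaks and GAGA less so (0.266, adjusted p = 0.000597).

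The 18 divergent summits with a DRE word had signals of 3.26 to 323, with a median of 178, and the strongest was RpS25/CG4820. Across whole intervals between starts, the DRE word was in 17.1% of the 527 head-to-head pairs with a peak and 17.4% of the 2088 without. At the midpoint of the interval it was in 2.85% of pairs with a peak and 5.41% of those without. Forkhead words were anywhere in the interval in 48.8% and 51.6%, and within 50 bp of the midpoint in 29.6% and 22.5%. The pairs also differ in length and base composition. With a peak, starts were a median of 274 bp apart (quartiles 204 and 351 bp) and the mean AT content at the midpoint was 69.9%. Without a peak these were 319 bp (154 and 546 bp) and 65.7%. The shares of words were not tested, nor was the part of length and composition in them.

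Among the 923 head-to-head pairs with starts 201 to 400 bp apart, a class chosen after its values were seen and described without a test, the share with a peak was 13.3% (8.19 to 20%) where the AT content at the midpoint was under 65%. It was 35.2% (30.5 to 40.1%) at 65 to 75% and 40.1% (35.1 to 45.2%) at 75% or more. The strict forkhead word was within 50 bp of the midpoint in 8.01% of the 312 pairs with a peak (5.25 to 11.6%) and in 2.45% of the 611 without (1.38 to 4.02%). The mean AT content there was 74.4% with a peak and 71.1% without. TATAAA was there in 36.2% of pairs with a peak and 27.5% of those without. Under 65% AT, the strict word was in 10.5% of the 19 pairs with a peak and 3.23% of the 124 without, and TATAAA in 26.3% and 7.26%. At 65 to 75% AT, the strict word was in 12.9% and 3.10%, and TATAAA in 23.6% and 22.9%. At 75% AT or more, the strict word was in 3.27% and 1.31%, and TATAAA in 49.0% and 43.7%. Both shares were higher in pairs with a peak in each class, by unlike margins. Their intervals stood apart only for the strict word at 65 to 75% AT (7.80 to 19.6% against 1.35 to 6.02%). With and without a peak, the strict word was in 2 and 4 pairs under 65% AT and in 5 and 3 at 75% or more. All forkhead words together were in 21.1% and 12.1% under 65% AT and in 40% and 22.1% at 65 to 75% AT. At 75% AT or more their order turned round, to 35.3% with a peak (27.7 to 43.4%) and 47.2% without (40.6 to 53.8%).

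The genes of marked pairs were read against lists of gene symbols, which were completed after the strongest peaks had been seen, so their counts are descriptions. Of all paired genes 20.2% had a divergent promoter peak, with a median signal of 233. Cytoplasmic ribosomal protein genes had a peak at 21 of 52 paired members (40.4%, median signal 220), led by RpL7 (497), RpS27 (472) and RpL32 (449). Among the 33 unpaired ribosomal protein genes, 16 had a promoter peak (48.5%, against 7.0% of all unpaired genes). Ribosomal protein genes thus carried peaks in either setting. Mitochondrial ribosomal protein genes had a peak at 16 of 58 paired members (27.6%, median 266), led by mRpS10, mRpS23 and mRpL23, and at none of the 15 unpaired ones. Respiratory chain genes had a peak at 12 of 45 paired members (26.7%, median 223), led by ND-MWFE (486), a complex I subunit, and at none of the 46 unpaired ones.

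Genes for chromatin and insulator proteins had a divergent promoter peak at 14 of 29 paired members (48.3%, median 294) and a promoter peak at 4 of 12 unpaired ones (33.3%). The list does not hold every gene of these kinds, so its share depends on which were entered. Paired genes left out of it include Bap170 and glu, without a peak, and Ino80 and Chd1, with a peak. Chro and brm led this list. After them came pds5, a cohesin regulator (1015), Cp190, an insulator cofactor (887), and E(z), the histone methyltransferase of Polycomb repressive complex 2 (876). Also among the 14 were the structural maintenance genes SMC2, SMC5 and SMC6, the genes M1BP and Dref, whose proteins bind the promoter words above, Su(z)12, mor, HP1b and Su(var)205. Dref and RpL13 share 1 peak (signal 119), which is counted in both lists. The same holds between other lists for the peaks of Chro/Ssl1 (2044), RpL28/eIF1 (220), Cdk1/mRpS7 (205) and mRpL39/Prosbeta2 (132).

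Other lists of genes used by every cell were closer to all paired genes. Genes of Mediator and general transcription had a peak at 13 of 57 paired members (22.8%), led by Ssl1 and by Taf5 (551). Ssl1 was not among the symbols first planned for this list. The TFIIH genes Tfb4 and Tfb5, paired and without a peak, were not entered in it. Translation factors and tRNA synthetases had a peak at 12 of 49 (24.5%), led by eIF4EHP and GluProRS (564). Splicing genes had a peak at 6 of 27 (22.2%), led by U2af50 (504). Cell cycle and replication genes had a peak at 5 of 24 (20.8%), led by PolD2 (795), and proteasome genes at 5 of 26 (19.2%), led by Rpn3 (188). PolD2 was entered with other DNA polymerase genes that were not in the first plan of its list. Developmental transcription factor genes are rarely paired, with 2 of 64 in a pair and no divergent promoter peak, which is too few to give a share. Among their 62 unpaired members, 6 had a promoter peak (9.68%, against 7.0% of all unpaired genes). Chemosensory receptor genes had no divergent promoter peak at 27 paired members and no promoter peak at 152 unpaired ones.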

How the data were processed

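Binding was measured by ChIP-seq in 3 biological replicates of croc-eGFP embryos. The authors deposited peak lists in dm6 coordinates, per the labels, ranked or thresholded by the irreproducible discovery rate, per replicate and for the whole series. No aligner, peak caller or version is named in the labels or files. The deposited signal is a value the authors' peak caller gave each peak; no label states its scale, so it was compared within a list only. No read counts were used, so depth is unknown. The deposited summit position (another unit, bp from the peak start) gave each summit.

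Summits were set against 19607 start sites of 13945 protein-coding genes of the Ensembl BDGP6.54 annotation, and 3644 of the 3650 conservative peaks lay on the 6 arms. The members and lists were chosen with earlier results of these data known. Tests were 2-sided exact binomial and Fisher's exact tests over peaks (Benjamini-Hochberg over 10 Fisher tests, threshold 0.05), in Python 3.11.15 with scipy 1.17.1. Peaks are not independent samples. Intervals are exact (Clopper-Pearson) at 95% and cover counting error only. Words were searched within 50 bp of the summit. The assignment to classes and the word search were tested on simulated data. Genes were named from the 12 strongest members shared with all replicates, the strongest of each list and arrangement, the 3 strongest shared with no replicate, and pairs with 2 members. Pairs shown for a sequence, members at the edge of the rule and other list members were picked once values had been seen. The alternatives covered other distances, start sites, peak subsets, windows, replicate lists, and leaving out each replicate, which kept peaks shared with both others.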

Additional observations from a re-analysis of the deposited data

How the results depend on the processing

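The density ratio stayed between 3.15 and 7.25 under all 13 alternatives, each past the threshold. The number of members was 369 with start sites within 250 bp, 323 in the strongest 50% of peaks, 346 in the list of replicate 3, and 314 to 380 when a replicate was left out. The count of words past the threshold, 1 in the reported analysis, was 0 with 1000 bp, with only the outermost start of each gene, in the strongest 50% of peaks, in the lists of replicates 2 and 3 and with a 25 bp window, 4 with a 100 bp window, and 0 to 1 with a replicate left out, where the 1 word was the E-box (3.50 and 3.36 without replicates 1 and 3) and TATAAA did not pass. The odds ratio for the strongest 20%, 0.859 as reported, turned to 1.42 at 250 bp, 1.06 in the strongest 50% of peaks, 1.12 and 1.15 in the lists of replicates 2 and 3, 1.07 for the strongest 10%, 1.03 for the strongest 50% of the list, and 1.00 to 1.03 with a replicate left out, in no case past the threshold (adjusted p 0.0516 to 1). The odds ratio for sharing was 1.57 at 250 bp and 0.882 to 1.12 with a replicate left out, below 1 without replicate 3. The share nearer the plus-strand start was 50% at 250 bp, 49.8% without peaks beside a stronger summit, and 55.5 to 57.8% with a replicate left out. Reversed odds ratios of words, none past the threshold, were 0.982 for DRE, 0.832 for the E-box and 0.616 for M1BP at 250 bp, 0.988 for the strict forkhead word in a 25 bp window and 3.12 for Zelda in a 100 bp window. The odds ratio for TATAAA stayed between 1.26 and 1.52. The cause was not tested for any of these changes.

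No paired analysis was possible because the series has 1 group. Depth is unknown, so a pair without a peak is only one at which no peak passed the authors' threshold, and differences in depth between replicates were not tested. Mappability and control libraries were not analysed here. The annotation decides which pairs count, and which of its starts were in use in these embryos was not tested.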

Other observations

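Where a pair had a peak, the median signal was highest for starts at most 200 bp apart. The median signal of the strongest peak of a head-to-head pair was 268 at 1 to 100 bp between the starts, 286 at 101 to 200 bp, 251 at 201 to 300 bp, 230 at 301 to 400 bp, 183 at 401 to 500 bp and 157 at 501 to 600 bp. The 13 marked pairs at 601 to 800 bp had 198. These medians were not tested, and they do not follow the share of pairs with a peak, which was highest at 201 to 300 bp.

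The 579 peaks fell on 500 nearest gene pairs, of which 79 had 2 peaks. In 78 of the 79 the summits were within 250 bp of each other, a median of 205 bp apart over the 79, and the weaker had a median of 11.8% of the stronger signal. Its signal was under 50 in 68 of the 79. At Brf, a subunit of the RNA polymerase III factor TFIIIB, and sds22, a phosphatase regulator gene, the signals were 613 and 81.7 with summits 201 bp apart. At Ino80, a chromatin remodeller gene, and Aptx they were 497 and 80.0, at 208 bp. At RpL32/CG7943 they were 449 and 6.28, at 202 bp. Mic26-27/CG5916 had the more even signals of 429 and 154, at 199 bp. The exception in distance was Pax, the paxillin gene, with Alp12, with 808 and 22.4 at summits 2311 bp apart, a pair with several annotated starts. Summits within 250 bp of each other can match the same replicate peak, so the weaker one's sharing with replicates is not a separate observation. Of the 579 peaks, 32 had more than 2 protein-coding genes within 500 bp.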
